A study of Mus musculus with 6 samples.

Results

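The genes described here serve protein folding in the endoplasmic reticulum (ER), the compartment where secreted and membrane proteins are made, and the unfolded protein response that adjusts this machinery. They were chosen by name, from a list of 40 symbols, and 39 of the 16511 genes in the deposited table carried a listed symbol. The symbol Vimp was not found, and RefSeq gives Vimp as an older name of Selenos, whose values stand beside the degradation genes below. RNA had been sequenced from B lymphocytes enriched out of mouse spleen by magnetic removal of other cells, in 3 libraries labelled GPR40-KO and 3 labelled GPR40-WT. GPR40 is a fatty acid receptor encoded by Ffar1. The design text writes the mutant as GPR40-BKO, and the labels give no age, strain or kind of deletion.

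The labels need a caution that holds for every direction below. Ffar1 had 273, 392 and 304 counts in KO replicates 1, 2 and 3 and 0 counts in each WT library, which goes against the labels. Groups are therefore called the libraries labelled KO and the libraries labelled WT, and no genotype is implied. The labels do not say that replicates came from separate animals, so each p-value reflects only how much these libraries vary, part of which may be technical.

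Depth was even, at 14907080 to 15461425 estimated counts per library. Replicates differed by more than sampling noise in every pair (chi-square per degree of freedom 12 to 47.9). Defining B cell genes (Cd79a, Cd79b, Ms4a1, Cd22 and Pax5) summed to between 7840 and 8415 CPM (counts scaled to a common library size) in the libraries labelled KO, against 4399 to 6645 CPM in those labelled WT. Markers of several other cell types had larger sums in the libraries labelled WT. The 10 macrophage and monocyte markers summed to 2596, 1391 and 2346 CPM in KO replicates 1, 2 and 3, against 6720, 2942 and 8105 CPM in WT replicates 1, 2 and 3. The 10 neutrophil markers summed to 100 to 226 CPM in the libraries labelled KO and to 586 to 5511 CPM in those labelled WT, with Ly6g at 0 in KO replicate 3. The 9 T cell markers present summed to 77.9 to 134 CPM in the libraries labelled KO and to 111 to 546 CPM in those labelled WT. The 7 dendritic cell markers summed to 52.3 to 71.8 CPM in the libraries labelled KO and to 117 to 180 CPM in those labelled WT. The 5 erythroid markers reached 6364 CPM in WT replicate 3 and lay between 251 and 1212 CPM in the other libraries. Plasma cells carry a large ER, and their 7 markers summed to 759 to 841 CPM in the libraries labelled KO against 752 to 933 CPM in those labelled WT, with Tnfrsf17 at 0 in 5 of 6 libraries. Of the tested markers, 2 of 5 B cell genes rose in the libraries labelled KO. Among macrophage and monocyte genes 1 of 10 fell, among neutrophil genes 2 of 10 and among T cell genes 1 of 9. Of dendritic cell genes 3 of 6 fell, and of erythroid genes 0 of 5. Over all tested genes, 4.55% rose and 4.81% fell. Median log2 fold changes (libraries labelled KO over labelled WT) were -1.30 for macrophage and monocyte, -4.18 for neutrophil and -2.66 for T cell markers. They were -1.18 for dendritic cell, -1.50 for erythroid and 0.35 for B cell markers. Of 6 plasma cell genes, Sdc1 rose and Prdm1 fell. Jchain was not called, but it was higher in every KO library. It had 48.7, 35.9 and 51.3 CPM in KO replicates 1, 2 and 3, against 28.4, 18.8 and 12.3 CPM in WT replicates 1, 2 and 3. Irf4 and Mzb1 had the largest values of the plasma cell list in every library, so the sum mostly follows these genes. In bulk RNA, fewer cells of a type and less RNA per cell cannot be told apart. What other cells contributed to the results below was not tested.

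New polypeptides enter the ER through the Sec61 channel, lose their signal peptide, and are folded by chaperones and by enzymes that form disulphide bonds. Chains that fail to fold are pulled back to the cytosol and destroyed, a route called ER-associated degradation (ERAD). When unfolded chains pile up, the sensors IRE1 (encoded by Ern1), PERK (Eif2ak3) and ATF6 signal to the nucleus and to the ribosome. B cells lean on this system when they turn into antibody-secreting plasma cells, a step that needs Xbp1, the transcription factor activated by IRE1.

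Some of the members share a promoter element. ATF6 and XBP1 act through the ER stress response element (ERSE), which reads CCAAT, then 9 bases, then CCACG. Promoter windows of 300 bases (250 before to 50 after the annotated start, RefSeq, GRCm38.p6) were found for 32 of the 39 members. On either strand, an exact ERSE was present in 10 of these 32 (31.2%), against 37 of all 27025 genes with a window (0.137%). They were 6 chaperone genes, 2 genes of oxidative folding and 2 of ERAD, and none of translocation or of the sensors. The related ERSE-II (ATTGG, then 1 base, then CCACG) was present in Dnajb11 and Herpud1, 6.25% of members against 0.0444% of all genes. The element called UPRE (TGACGTGG) was in 0 of 32 windows and in 0.714% of all genes. A match describes the letters only. The members were listed as genes of the response in which ATF6 and XBP1 act, so their higher share is no independent result. The ERSE copies are shown 5′ to 3′ in the direction of the element, with its fixed letters in capitals, so that their spacers can be compared.

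Calr, chr8:84847075-84847093, plus strand: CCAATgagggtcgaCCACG
Canx, chr11:50325800-50325818, minus strand: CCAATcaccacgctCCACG
Creld2, chr15:88819520-88819538, minus strand: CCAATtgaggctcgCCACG
Derl3, chr10:75893242-75893260, minus strand: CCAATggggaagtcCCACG
Dnajc3, chr14:118937827-118937845, plus strand: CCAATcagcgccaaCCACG
Ero1b, chr13:12565682-12565700, minus strand: CCAATgaggcgggaCCACG
Hsp90b1, chr10:86705638-86705656, minus strand: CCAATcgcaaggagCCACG
Hsp90b1, chr10:86705533-86705551, plus strand: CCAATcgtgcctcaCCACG
Hspa5, chr2:34772025-34772043, plus strand: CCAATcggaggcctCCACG
Pdia6, chr12:17266491-17266509, plus strand: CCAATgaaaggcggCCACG
Syvn1, chr19:6046532-6046550, plus strand: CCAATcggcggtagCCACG

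In Dnajb11 and Herpud1 the ERSE-II copies read as follows, again with the fixed letters in capitals.

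Dnajb11, chr16:22857852-22857862, plus strand: ATTGGcCCACG
Herpud1, chr8:94386377-94386387, plus strand: ATTGGgCCACG

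The windows of Hspa5, Pdia6 and Eif2ak3 are given whole, because Hspa5 is the classical target of the pathway and the others are the members called below. Capitals mark the ERSE. Pdia6 has one copy and the Eif2ak3 window has none.

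Hspa5, chr2:34771840-34772139, plus strand: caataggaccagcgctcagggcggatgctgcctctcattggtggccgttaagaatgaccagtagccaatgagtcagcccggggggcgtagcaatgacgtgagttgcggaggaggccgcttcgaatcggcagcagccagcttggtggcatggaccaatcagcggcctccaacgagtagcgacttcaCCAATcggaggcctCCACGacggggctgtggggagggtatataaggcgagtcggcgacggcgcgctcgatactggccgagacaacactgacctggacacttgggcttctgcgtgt
Pdia6, chr12:17266339-17266638, plus strand: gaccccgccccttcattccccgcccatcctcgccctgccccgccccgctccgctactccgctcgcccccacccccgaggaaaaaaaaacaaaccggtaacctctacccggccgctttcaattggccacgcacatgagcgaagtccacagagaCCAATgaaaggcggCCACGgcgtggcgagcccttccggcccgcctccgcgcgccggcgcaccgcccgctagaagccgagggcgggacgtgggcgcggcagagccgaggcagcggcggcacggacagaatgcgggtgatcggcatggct
Eif2ak3, chr6:70844265-70844564, plus strand: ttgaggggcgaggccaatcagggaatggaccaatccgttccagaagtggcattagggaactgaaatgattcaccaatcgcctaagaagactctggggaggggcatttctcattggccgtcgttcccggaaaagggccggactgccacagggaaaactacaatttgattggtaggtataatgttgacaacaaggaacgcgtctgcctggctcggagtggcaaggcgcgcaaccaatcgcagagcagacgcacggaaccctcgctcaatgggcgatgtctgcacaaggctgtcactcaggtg

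Levels differed widely among the members on the length-scaled FPKM scale (fragments scaled to gene length and library depth). The chaperone of glycoproteins Calr was at the top with a mean of 364 FPKM over the 6 libraries (302 to 417), followed by Hsp90b1 with 246 FPKM (214 to 288) and Hspa5 with 206 FPKM (173 to 256). The ranges of Hsp90b1 and Hspa5 overlapped, and that of Calr stood above both. Sec61b, a subunit of the channel, had 169 FPKM. At the other end were Derl3 with 3.13 FPKM, Ern1 with 7.13 FPKM and Atf6 with 18.1 FPKM.

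Most of these genes showed little difference between the groups, and the 2 that passed the test were lower in the libraries labelled KO. All 39 passed the filter on low counts and were tested. Eif2ak3 and Pdia6 fell (edgeR quasi-likelihood test, adjusted over all genes, threshold 0.05), and none rose. That is 5.13% of the members, near the 4.81% of all 12234 tested genes that were called lower in the libraries labelled KO. A further 4.55% of all tested genes were called higher, which makes 9.37% in either direction. At an unadjusted p under 0.05 there were 8 lower members and 1 higher of 39, against 1868 lower and 1590 higher of all 12234 tested genes. The fitted log2 fold change (libraries labelled KO over labelled WT) was below 0 for 32 of 39 members, against 48.5% of all genes, with a median of -0.11 against 0.01. The groups did not overlap for 20.5% of the members and 33.4% of all genes. All KO libraries lay below all WT libraries for 6 members, against 15.9% of all genes, and above them for Syvn1 and Derl3, against 17.5% of all genes. With the replicate number as a block, 7 members were lower and 0 higher (12.8% of all genes lower with this block). DESeq2 called 5 lower and 1 higher, where it called 18.4% of all genes in either direction and 11.4% as lower.

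**Figure D1:**
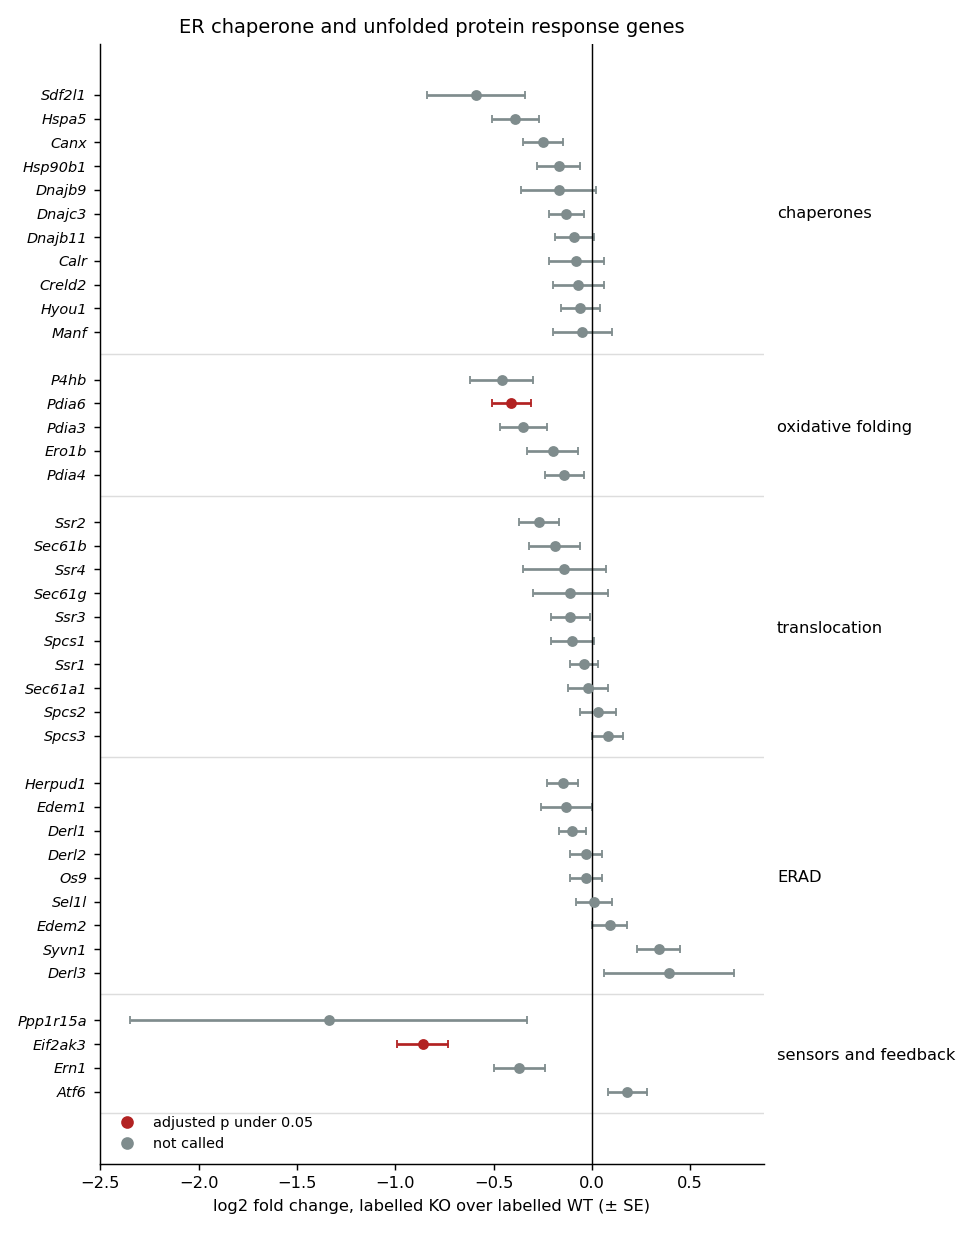
Log2 fold change (labelled KO over labelled WT, x axis) of each of the 39 genes with its standard error, grouped by role; red marks adjusted p under 0.05. Eif2ak3 at -0.86 and Pdia6 at -0.41 are the 2 red points, and all 11 chaperone and 5 oxidative folding genes sit left of 0.

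Among the sensors, Eif2ak3 was the gene that passed the test, and it fell. It encodes PERK, the kinase that slows translation by phosphorylating eIF2alpha, and lies on chr6:70844484-70905241 (GRCm38). It had 196, 210 and 180 CPM in KO replicates 1, 2 and 3, against 286, 409 and 367 CPM in WT replicates 1, 2 and 3. The groups did not overlap, and the lowest WT library stood well above the highest KO library. The log2 fold change was -0.86 ± 0.13 (SE, adjusted p = 0.00879; blocked adjusted p = 6.99e-04). Eif2ak3 was highest in WT replicate 2, the library in which 29 of the 39 members had their lowest WT value. Of the WT libraries, replicate 2 had the smallest macrophage and dendritic cell sums and the largest B cell and plasma cell sums. The plasma cell markers did not move together. Irf4, Mzb1 and Prdm1 were highest in WT replicate 2, but Sdc1 and Jchain were highest in WT replicate 1 (31.7 and 28.4 CPM, against 27.6 and 18.8 CPM in replicate 2). What macrophages, dendritic cells, B cells and plasma cells contributed was not tested. Eif2ak3 lost its call only without KO replicate 1 (log2 fold change -0.86, adjusted p = 0.0562).

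Ern1, the gene of the kinase and nuclease IRE1, was lower in every KO library but did not pass. It had 36.4, 31.6 and 38.2 CPM in the libraries labelled KO, against 52.2, 41.9 and 43.5 CPM in those labelled WT. Its log2 fold change was -0.37 ± 0.13 (adjusted p = 0.0996), and the block brought it past the threshold (blocked adjusted p = 0.0485). Atf6, the membrane-bound transcription factor cut free in the Golgi, had 145, 140 and 130 CPM in the libraries labelled KO, against 138, 115 and 114 CPM in those labelled WT. These groups overlapped (0.18 ± 0.10, adjusted p = 0.266).

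Ppp1r15a, which encodes the phosphatase subunit GADD34 that reverses the PERK signal, was set apart by a single library. It had 104, 43.3 and 103 CPM in the libraries labelled KO, against 70.7, 64.9 and 497 CPM in WT replicates 1, 2 and 3. Its log2 fold change of -1.34 ± 1.01 did not pass (adjusted p = 0.458) and became 0.30 without WT replicate 3 (adjusted p = 0.748). The same library held the highest erythroid and macrophage sums.

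**Figure D2:**
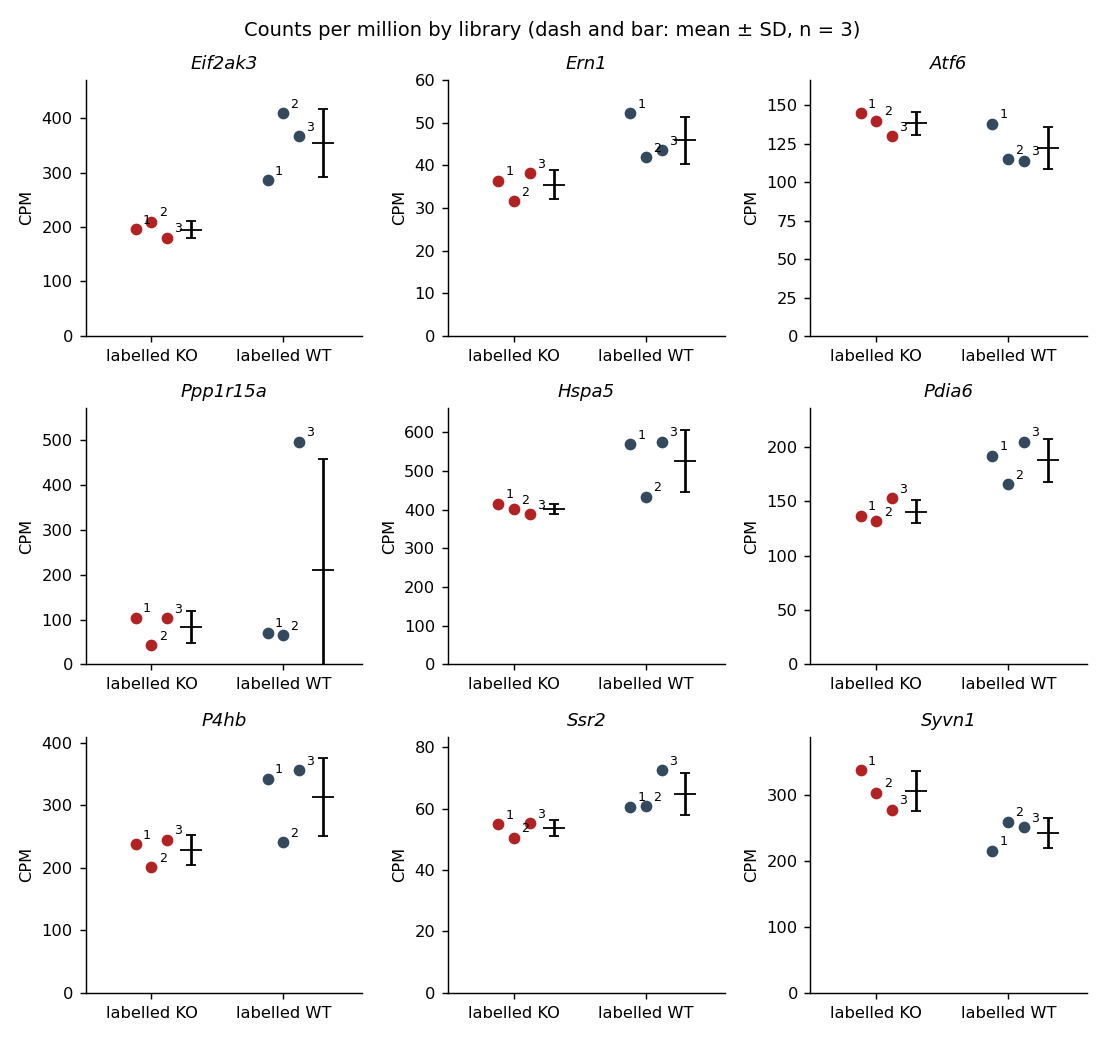
CPM (y axis) in each library for 9 members, labelled KO left and labelled WT right, with replicate numbers beside the points and the mean ± SD (n = 3) as a dash and bar, clipped at 0 for Ppp1r15a. Eif2ak3 and Pdia6 separate the groups, Syvn1 is higher in each KO library, and Ppp1r15a is raised in WT replicate 3 alone at 497 CPM.

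The 11 chaperone genes were all fitted lower in the libraries labelled KO, and none was called (median log2 fold change -0.13, range -0.59 to -0.05). The median was -0.04 without WT replicate 3 and -0.21 without WT replicate 2. Hspa5 encodes BiP, the main Hsp70 of the ER, and is on chr2:34772090-34776529. It had 416, 401 and 389 CPM in the libraries labelled KO, against 569, 434 and 576 CPM in those labelled WT. No KO library reached a WT library, but WT replicate 2 lay close to the KO libraries. The log2 fold change was -0.39 ± 0.12 (adjusted p = 0.0737). Hspa5 was called in the fit with the block (blocked adjusted p = 0.0275), in DESeq2 (adjusted p = 0.00795) and without WT replicate 2 (log2 fold change -0.50, edgeR adjusted p = 0.00698).

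Sdf2l1, a small partner of BiP and its J-domain proteins, had the largest fitted difference of this role. It had 21.6, 15.2 and 23.4 CPM in the libraries labelled KO, against 32.2, 20.6 and 38.1 CPM in those labelled WT, so the groups overlapped. Its log2 fold change was -0.59 ± 0.25 (adjusted p = 0.178), and the blocked fit called it (blocked adjusted p = 0.0114). Canx, the membrane-bound lectin chaperone calnexin, had -0.25 ± 0.10 (adjusted p = 0.154).

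The soluble lectin Calr had 621, 590 and 541 CPM in the libraries labelled KO, against 676, 487 and 685 CPM in those labelled WT. Its groups overlapped fully (log2 fold change -0.08 ± 0.14, adjusted p = 0.756). Hsp90b1 (the ER Hsp90, GRP94) had -0.17 ± 0.11. The J-domain cochaperones Dnajb9, Dnajb11 and Dnajc3 had -0.17, -0.09 and -0.13, the nucleotide exchange factor Hyou1 -0.06, and the secreted stress proteins Manf and Creld2 -0.05 and -0.07. Adjusted p-values of these genes lay between 0.319 and 0.860.

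All 5 genes of oxidative folding were fitted lower in the libraries labelled KO, with a median of -0.35, and Pdia6 fell. Pdia6, a protein disulphide isomerase on chr12:17266589-17284785, had 137, 132 and 153 CPM in the libraries labelled KO, against 192, 166 and 205 CPM in those labelled WT. Its groups did not overlap, with means of 141 ± 11.2 CPM in the libraries labelled KO and 188 ± 20.0 CPM in those labelled WT (SD, n = 3 each). The log2 fold change was -0.41 ± 0.10 (adjusted p = 0.0433; blocked adjusted p = 0.00546). Of the 6 fits that left out 1 library, Pdia6 passed only in the fit without WT replicate 2 (adjusted p 0.0140 to 0.164).

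P4hb, the founding disulphide isomerase of the family, had 238, 201 and 245 CPM in the libraries labelled KO, against 342, 241 and 356 CPM in those labelled WT. WT replicate 2 fell inside the range of the KO libraries (log2 fold change -0.46 ± 0.16, adjusted p = 0.108; blocked adjusted p = 0.00645). Pdia3, which acts on glycoproteins held by calnexin and calreticulin, had 245, 233 and 291 CPM in the libraries labelled KO, against 344, 282 and 354 CPM in those labelled WT. It showed the same pattern, with WT replicate 2 inside the KO range (-0.35 ± 0.12, adjusted p = 0.102; blocked adjusted p = 0.0155). Pdia4 and the oxidase Ero1b, which recharges the isomerases, had -0.14 ± 0.10 and -0.20 ± 0.13 (adjusted p = 0.403 and 0.355).

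The 10 genes of translocation and signal peptide cleavage lay close to 0, with a median of -0.10 and a range of -0.27 to 0.08, and none was called. The median was -0.03 without WT replicate 3, -0.06 without KO replicate 2 and -0.17 without KO replicate 3. Ssr2, a subunit of the translocon-associated complex, had the smallest p of the role. It had 54.8, 50.5 and 55.3 CPM in the libraries labelled KO, against 60.6, 60.8 and 72.5 CPM in those labelled WT, without overlap (-0.27 ± 0.10, adjusted p = 0.129). Sec61b, the member of this role with the highest FPKM, had 36.8, 37.5 and 46.2 CPM in the libraries labelled KO, against 50.3, 41.5 and 45.8 CPM in those labelled WT. KO replicate 3 exceeded 2 of the WT libraries (-0.19 ± 0.13, adjusted p = 0.368). The channel subunits Sec61a1 and Sec61g had -0.02 and -0.11. The other translocon-associated subunits Ssr1, Ssr3 and Ssr4 lay between -0.14 and -0.04, and the signal peptidase subunits Spcs1, Spcs2 and Spcs3 had -0.10, 0.03 and 0.08.

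ERAD genes did not share a direction. Of 9 genes, 5 were fitted lower and 4 higher in the libraries labelled KO, with a median of -0.03 and none called. Syvn1 encodes HRD1, the ubiquitin ligase at the heart of the pathway. It had 338, 304 and 278 CPM in the libraries labelled KO, against 216, 260 and 251 CPM in those labelled WT. Every KO library was above every WT library (0.34 ± 0.11, adjusted p = 0.0795). DESeq2 called Syvn1 (adjusted p = 0.0279), and the fit with the block did not (blocked adjusted p = 0.0515). Its partner Sel1l had 145, 144 and 136 CPM in the libraries labelled KO, against 148, 126 and 149 CPM in those labelled WT, a log2 fold change of 0.01 ± 0.09 whose sign changed with the scaling.

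Herpud1, which binds HRD1 and is a textbook stress target, had 194, 185 and 185 CPM in the libraries labelled KO, against 191, 218 and 219 CPM in those labelled WT (-0.15 ± 0.08, adjusted p = 0.256). The rhomboid-like Derl1, Derl2 and Derl3 had -0.10, -0.03 and 0.39. Derl1 was lower and Derl3 higher in every KO library. Derl3 was also the scarcest member, with 3.62 ± 0.368 CPM in the libraries labelled KO and 2.75 ± 0.347 CPM in those labelled WT (SD, n = 3 each, adjusted p = 0.476). Edem1 and Edem2, which trim mannose from doomed glycoproteins, had -0.13 and 0.09, and the lectin Os9 -0.03. Selenos, which recruits the p97 ATPase to the membrane, had 41.6, 37.3 and 50.1 CPM in the libraries labelled KO, against 40.9, 43.2 and 49.3 CPM in those labelled WT (-0.05 ± 0.14, adjusted p = 0.853).

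**Figure D3:**
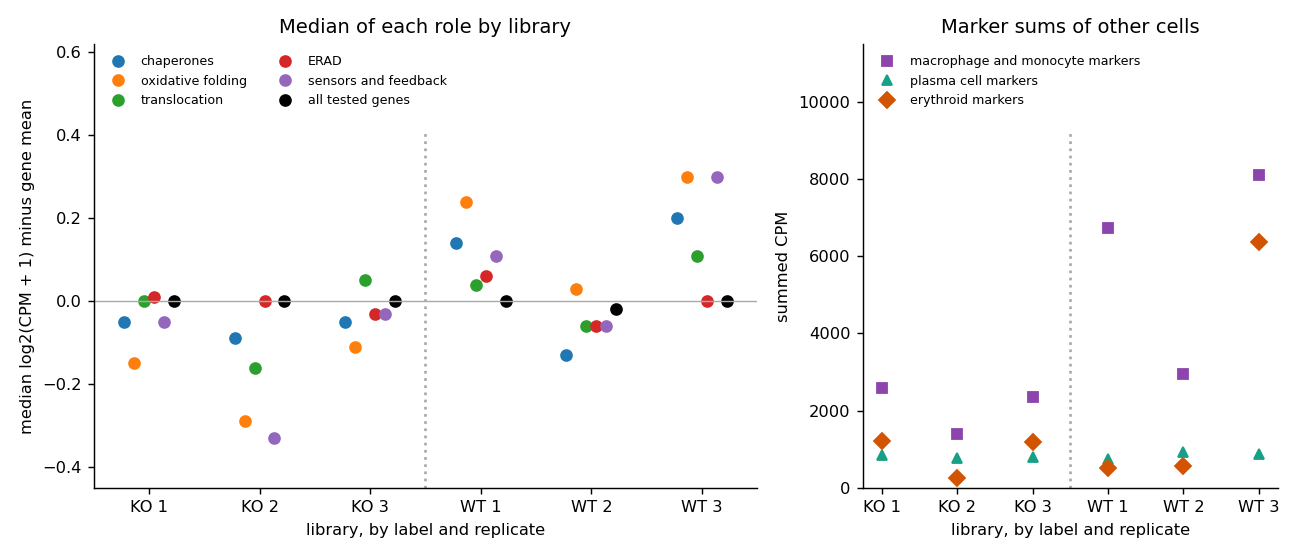
Left, for each library (x axis), the median over the genes of each role of log2(CPM + 1) minus the gene's mean over the 6 libraries (y axis), with all 12234 tested genes in black. Right, summed CPM of macrophage and monocyte, plasma cell and erythroid markers. Chaperones lie at 0.14 and 0.20 in WT replicates 1 and 3 and at -0.13 in WT replicate 2, and macrophage sums are 6720, 8105 and 2942 CPM in those libraries.

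The plot of role medians by library shows that the WT libraries differed among themselves. On the log2(CPM + 1) scale, after subtraction of each gene's mean, the chaperone median was at -0.05, -0.09 and -0.05 in KO replicates 1, 2 and 3, against 0.14, -0.13 and 0.20 in WT replicates 1, 2 and 3. The oxidative folding median was at -0.15, -0.29 and -0.11 in the libraries labelled KO, against 0.24, 0.03 and 0.30 in those labelled WT. The ERAD median stayed between -0.06 and 0.06 in every library, although Syvn1 and Derl3 were higher, and Derl1 lower, in every KO library. Of the 39 members, 22 had their highest value in WT replicate 3. The lowest value fell in KO replicate 2 for 14 members, in WT replicate 2 for 10 and in KO replicate 3 for 9. Macrophage and monocyte markers had their low WT sum in the same replicate 2 (2942 CPM, against 6720 and 8105 CPM in the other WT libraries). B cell markers had their highest WT sum there (6645 CPM, against 4399 and 5329 CPM in WT replicates 1 and 3). The part of either cell type in the result was not tested.

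The number of calls changed when 1 library was left out, for the members and for all genes. Each such fit also rests on fewer libraries, and what this contributed was not tested. Lower members numbered 0, 1 and 1 without KO replicates 1, 2 and 3, when 1.46%, 0.753% and 1.91% of all genes were called lower. They numbered 1, 7 and 1 without WT replicates 1, 2 and 3, when 2.7%, 9.57% and 2.05% of all genes were. Without WT replicate 2, Hspa5, Canx, Sdf2l1, Pdia3, Pdia6, P4hb and Eif2ak3 were lower and Syvn1 was higher in the libraries labelled KO (16.2% of all genes were called in either direction in that fit). Members with an ERSE or ERSE-II and members with a window but neither had similar medians, -0.14 over 12 genes and -0.13 over 20 genes, with 1 call in each (Pdia6 and Eif2ak3).

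Beyond the members, 98 further genes of the secretory pathway from 5 lists were in the table, and 97 were tested. Of these, 3 rose, 5 fell and 89 did not pass, so that 8.25% were called, against 9.37% of all tested genes. In the list of stress transcription factors and their targets, Atf3, Trib3 and Chac1 fell and the other 16 of 19 did not pass. The share called was 15.8%, where 4.81% of all tested genes were called lower, and the list median was -0.19. Trib3, a pseudokinase induced by ATF4 and CHOP, had 13.7, 15.1 and 16.9 CPM in the libraries labelled KO, against 29.8, 35.5 and 28.6 CPM in those labelled WT. The groups were far apart (-1.04 ± 0.14, adjusted p = 0.00499), and Trib3 passed in each of the 6 fits without 1 library. Atf3, a stress-induced repressor, had 13.7, 9.58 and 10.3 CPM in the libraries labelled KO, against 54.8, 24.2 and 40.4 CPM in those labelled WT (-1.83 ± 0.31, adjusted p = 0.0199). The glutathione-degrading enzyme Chac1 had 7.61, 5.39 and 10 CPM in the libraries labelled KO, against 12.9, 18.1 and 15.3 CPM in those labelled WT (-1.01 ± 0.26, adjusted p = 0.0462). When 1 library was left out, Atf3 kept its call in 2 and Chac1 in 1 of 6 fits (largest adjusted p = 0.103 and 0.147).

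Cebpb, a transcription factor of the same list named after its values were seen, had 13.7, 5.86 and 11 CPM in the libraries labelled KO, against 30.2, 16.5 and 30.4 CPM in those labelled WT. Its groups did not overlap, and its log2 fold change of -1.34 ± 0.37 missed the threshold (adjusted p = 0.0694). The block and DESeq2 each called it (blocked adjusted p = 3.82e-04, DESeq2 adjusted p = 0.00141). Of the WT libraries, Cebpb and Atf3 were lowest in replicate 2, as was the macrophage and monocyte sum (2942 CPM), while Trib3 and Chac1 were highest there. What macrophages and monocytes contributed was not tested.

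Atf4, Ddit3 and Xbp1, central factors of the response, did not pass. Atf4, whose translation rises when eIF2alpha is phosphorylated, had 300, 314 and 335 CPM in the libraries labelled KO, against 333, 403 and 360 CPM in those labelled WT (-0.21 ± 0.09, adjusted p = 0.191). Ddit3, which encodes CHOP, had -0.13 ± 0.10 (adjusted p = 0.475), and Xbp1 had -0.13 ± 0.13 (adjusted p = 0.544).

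Among 21 further folding and oxidation enzymes, Txndc5 and Erp29 rose, Dnajb14 and Ero1a fell and 17 did not pass (19.0% called, against 9.37% of all tested genes). Txndc5, a disulphide isomerase abundant in plasma cells, had 262, 271 and 247 CPM in the libraries labelled KO, against 111, 118 and 115 CPM in those labelled WT. It moved opposite to Pdia6 and more than any member that was called (1.18 ± 0.08, adjusted p = 1.98e-04), and passed in all 6 fits without 1 library. Ero1a, the oxidase related to Ero1b, had 37.7, 37.0 and 35.5 CPM in the libraries labelled KO, against 56.8, 49.9 and 48.7 CPM in those labelled WT (-0.50 ± 0.10, adjusted p = 0.0250). The ER protein Erp29 had 0.30 ± 0.08 (adjusted p = 0.0464) and lost its call under the other 2 scalings (adjusted p = 0.0545 and 0.0591). Dnajb14, a J-domain protein of the ER membrane, had -0.78 ± 0.18 (adjusted p = 0.0376).

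The remaining lists were near the median of all genes. Of 17 other translocation genes, Tram1, a membrane protein beside the channel, rose to 197 ± 3.5 CPM in the libraries labelled KO, against 157 ± 6.15 CPM in those labelled WT (SD, n = 3 each, 0.32 ± 0.07, adjusted p = 0.0327), and the median was -0.02. None of 19 genes of N-glycosylation and the calnexin cycle was called by edgeR without the block, nor any of 21 other ERAD genes. At an unadjusted p under 0.05, the first list had 4 lower and 4 higher and the second 2 lower. Over all 12234 tested genes, 1868 were lower and 1590 higher at that threshold. DESeq2 called 1 lower in each list, where it called 11.4% of all tested genes lower. The list medians were -0.04 and -0.07, in the same order. With the block, Mcfd2 and Lman1, which carry glycoproteins out of the ER as a cargo receptor, were lower in the libraries labelled KO (log2 fold change without the block -0.56 ± 0.23 and -0.45 ± 0.15, adjusted p = 0.165 and 0.0906; blocked adjusted p = 0.00469 and 0.0206), and no gene of the other ERAD list was. Ero1a passed in 2 and Erp29, Dnajb14 and Tram1 each in 1 of the fits without 1 library.

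**Figure D4:**
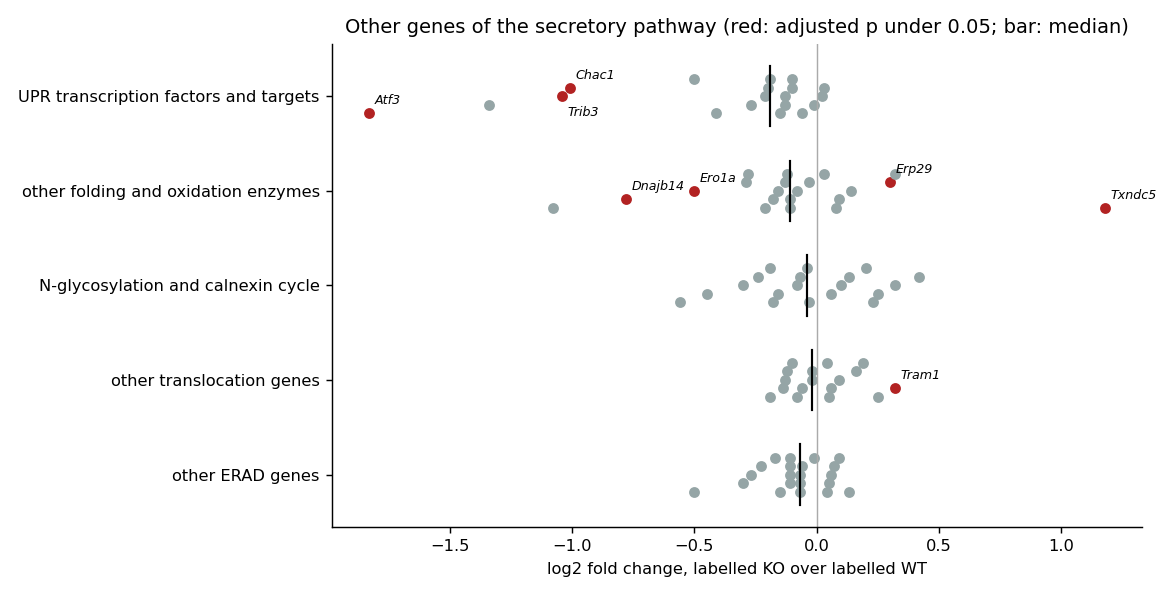
Log2 fold change (labelled KO over labelled WT, x axis) of 97 tested genes in 5 further lists of the secretory pathway, 1 point per gene, with the list median as a bar and adjusted p under 0.05 in red. Txndc5 stands at 1.18 and Trib3, Chac1 and Atf3 at -1.04, -1.01 and -1.83, while the medians lie between -0.19 and -0.02.

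The table of transcripts comes from the same libraries and gives no independent support. It held 89 transcript records of the members and Xbp1, of which 75 were tested. None was called by edgeR, where 0.154% of 31150 tested transcripts were called, and 11 were lower and 3 higher at an unadjusted p under 0.05 (18.7%, against 10.3% of all tested transcripts). The smallest adjusted p was 0.161, for a minor Atf6 record. It had 0 CPM in each KO library, against 7.21, 8.85 and 2.68 CPM in WT replicates 1, 2 and 3. A minor Edem2 record went the other way, with 2.1, 2.13 and 1.76 CPM in KO replicates 1, 2 and 3 and 0 CPM in each WT library (adjusted p = 0.191). The main record of Eif2ak3 held 92.2%, 86.7% and 89.2% of its counts in the libraries labelled KO, against 80.9%, 88.9% and 91.5% in those labelled WT. That record averaged 175 ± 11.3 CPM in the libraries labelled KO and 314 ± 70.5 CPM in those labelled WT (SD, n = 3 each, log2 fold change -0.84 ± 0.18, adjusted p = 0.190). The other tested Eif2ak3 records were also fitted lower in the libraries labelled KO (-1.54 and -0.76).

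Xbp1 is the substrate through which IRE1 activity can be read in RNA, because IRE1 cuts a short intron out of its message. The shorter of the 2 Xbp1 records, 1.37% shorter by the ratio of its counts to its FPKM, was taken as the cut form from its length. It took 6.06%, 3.26% and 9.41% of the Xbp1 counts in KO replicates 1, 2 and 3, against 3.36%, 6.93% and 6.68% in WT replicates 1, 2 and 3. The groups overlapped, with means of 6.24 ± 3.08% and 5.66 ± 2.00% (SD, n = 3 each). An exact two-sided permutation test gave p = 1, where 0.1 is the smallest p that 3 against 3 libraries allow. The shares rest on 44.5 to 162 estimated counts per library, divided between near-identical records by the authors' software, so a moderate difference was not detectable.

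**Figure D5:**
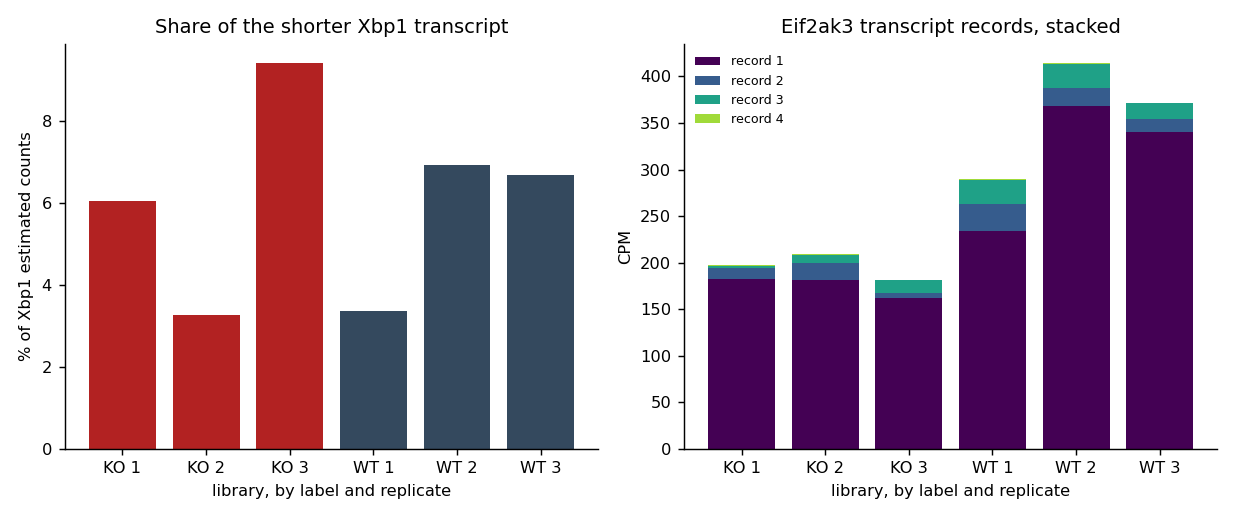
Left, share of Xbp1 estimated counts on the shorter record (%, y axis) in each library, red for labelled KO and dark blue for labelled WT; the libraries labelled KO lie between 3.26% and 9.41% and those labelled WT between 3.36% and 6.93%. Right, CPM of the 4 Eif2ak3 transcript records stacked by library; record 1 averages 175 CPM in the libraries labelled KO and 314 CPM in those labelled WT.

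Some members share exon bases with genes on the opposite strand (GENCODE, GRCm38), and the labels mention no strand-marking step. Derl2 shares 231 bases with Mis12, Spcs1 252 with Glt8d1 and Syvn1 91 with Mrpl49, so part of their reads cannot be assigned with certainty. Hsp90b1 shares 415 bases with 1810014B01Rik and Sec61a1 549 with Gm44170, neither of them in the table. Pdia6 shares 50 bases with Atp6v1c2, which had 0.189 CPM, and Eif2ak3 shares 485 with Gm43292, which was not in the table. Pseudogenes of Calr and Spcs2 (Calr-ps and Spcs2-ps) are annotated, and how the authors' software divided reads between such copies is not given in the sources used here.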

How the data were processed

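The authors deposited estimated counts per gene and per transcript, not scaled to depth, and FPKM, scaled to gene length and depth, per the file headers. RSEM 1.3.1, HISAT2 2.0.4, Bowtie2 2.2.5 and mm10 are listed, with no roles, in the submitters' processing notes. Of the gene values, 5.87% were not whole. Counts were rounded and columns assigned to libraries by name, and 30 further columns of values per library were not used. The filterByExpr rule of edgeR 4.0.16 left 12234 of 16511 genes and 31150 of 55379 transcripts. Groups were compared by edgeR's robust quasi-likelihood F-test (TMM factors, label alone) with Benjamini-Hochberg adjustment over all tested genes or transcripts at 0.05. Adjusted p-values come from it unless DESeq2 1.42.0 is named. Standard errors derive from the F statistic. CPM use TMM-scaled library sizes. The procedure was tested on simulated data.

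The labels number replicates 1 to 3 in both groups. Deviations from group means correlated between same-numbered libraries with r = 0.133, 0.362 and 0.170. Between differently numbered libraries r lay between -0.218 and 0.0365. All same-numbered values exceed 0.1, so the numbers may pair the libraries, although the labels do not say so and the pairing was not tested. Blocked p-values stand where they change a call, and also for Syvn1 and for the called members Eif2ak3 and Pdia6, whose calls they do not change. Members, lists and the naming rule were chosen with earlier results of these data known. The rule gives values in every library for called members, for the member of smallest p and of highest FPKM in each role, and for the sensors and Ppp1r15a, and names called genes of the other lists with Xbp1, Atf4 and Ddit3. P4hb, Sdf2l1, Sel1l, Selenos, Cebpb, Mcfd2 and Lman1 were added after their values were seen. Protein sequences are not used here. All 39 member identifiers matched RefSeq. One marker of the B cell list is not reported here, and its other 5 are.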

Additional observations from a re-analysis of the deposited data

How the results depend on the processing

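Over 39 members and 11 alternatives, 391 of 429 fits kept the direction and the side of the threshold, 6 lost a call, 15 gained one and 17 changed sign, none of the last with a call. With the replicate block, lower members numbered 7 and lower genes of the other lists 8, against 2 and 5 without it. All genes called were then 974 higher and 1561 lower, against 557 and 589. DESeq2 gave 855 higher and 1391 lower over all genes, 1 higher and 5 lower members, and 8 lower genes of the other lists. Without 1 library, all genes ranged over 169 to 830 higher and 95 to 1200 lower, members over 0 to 1 higher and 0 to 7 lower and other pathway genes over 1 to 3 higher and 1 to 8 lower. The median log2 fold change lay between -0.21 and -0.04 for chaperones, -0.45 and -0.28 for oxidative folding and -0.17 and -0.03 for translocation. That of ERAD lay between -0.05 and 0.03, and that of the sensors taken with Ppp1r15a between -0.63 and -0.13. The value of -0.13 came without WT replicate 3, where Ppp1r15a had 0.30, Eif2ak3 -0.83, Ern1 -0.40 and Atf6 0.14. The causes were not tested. No member transcript was called under any of these settings that were run on transcripts. Leaving out 1 library changed the sign of these log2 fold changes, given as lowest and highest: Calr -0.21 and 0.01, Manf -0.17 and 0.09, Sec61a1 -0.08 and 0.06, Sec61g -0.25 and 0.09, Ssr1 -0.07 and 0.01, Ssr4 -0.30 and 0.04, Sel1l -0.05 and 0.05, Edem1 -0.23 and 0.02, Derl2 -0.05 and 0.01, Os9 -0.06 and 0.03, Ppp1r15a -1.76 and 0.30, and Selenos -0.17 and 0.04. Sel1l had -0.0016 in DESeq2, -0.00158 with RLE scaling and -0.01 with library totals alone. Depth was lowest for Derl3, with 37 to 60 counts per library.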
